A study of Mus musculus with 2 samples.

Results

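Transcripts of 35 nuclear hormone receptor genes were examined in the hypothalamus of mice lacking Crtc1 and of wild-type mice. The genes were chosen by name, and their signals came from probe sets that the annotation of the Mouse Genome 430 2.0 array pairs with one of these symbols alone. This gave 92 probe sets for 34 of the 35 genes, out of 34945 probe sets and 18193 genes on the array with such a pairing, and Nr1h2 had no probe set of this kind. The study compared Crtc1 knockout with wild-type males, all 12 weeks old, whose hypothalami were taken after an 18 h fast and 6 h of refeeding. Equal amounts of total RNA from 3 mice of a genotype were pooled and hybridised to 1 array, so each group is 1 pooled sample, the differences below cannot be tested and have no replicate behind them. The mouse strain, and how the Crtc1 allele was made, are not stated in the sources used.

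Nuclear receptors are transcription factors that bind DNA through a pair of zinc fingers and are switched by small fat-soluble ligands, such as steroids, retinoids, fatty acids and sterols. Many pair with a retinoid X receptor, some act alone, and the orphan members have no settled natural ligand. In the hypothalamus, receptors for oestrogen, progesterone and glucocorticoids carry feedback from the gonads and adrenals to the neurons that govern reproduction, stress and feeding. Crtc1 assists the transcription factor CREB, which binds the site TGACGTCA or its part TGACG.

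Promoters are shown for the genes that hold the full CREB site and for 3 of the 6 genes that differ at least 1.2-fold below, Rorb, Nr2c2 and Esrrb. RefSeq windows of 250 bases before to 50 bases after each annotated start site (GRCm38.p6) were found for 33 of the 35 genes, 53 windows in all, and both strands were searched. The full site TGACGTCA was found in 2 of the 53 windows (3.77%), those of Nr2e1 and Nr6a1, against 1.79% of 32851 windows of all genes. The shorter TGACG, which lies inside the full site, was found in 13 of the 53 (24.5%) against 20.8% of all windows, and by gene in 11 of 33 (33.3%) against 23.0%. Besides the genes shown, these were Esr2, Nr1h2, Nr2c1, Ppara, Ppard, Rara and Rxrb. These are matches of letters and not sites known to be bound. In the sequences below, read 5′ to 3′ on the strand of the gene, capitals mark TGACGTCA or TGACG on either strand, and all but that of Nr6a1 are the 250 bases before a start site. For Nr6a1 the site begins at base 36 after a start site and is shown with its flanks. Nr2e1, Nr2c2 and Esrrb hold matches in the windows shown, and neither annotated start of Rorb does. Another annotated start of Esrrb, not shown, holds no match.
Nr2e1 (chr10:42583591-42583840, minus strand): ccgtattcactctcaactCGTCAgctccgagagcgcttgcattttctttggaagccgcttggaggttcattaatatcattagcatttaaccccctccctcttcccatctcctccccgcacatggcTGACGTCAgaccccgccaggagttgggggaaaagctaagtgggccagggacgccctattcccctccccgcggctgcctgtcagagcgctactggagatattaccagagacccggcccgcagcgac
Nr6a1 (chr2:38926412-38926436, minus strand): cagcggcgcgTGACGTCAgaggagg
Rorb (chr19:19111197-19111446, minus strand): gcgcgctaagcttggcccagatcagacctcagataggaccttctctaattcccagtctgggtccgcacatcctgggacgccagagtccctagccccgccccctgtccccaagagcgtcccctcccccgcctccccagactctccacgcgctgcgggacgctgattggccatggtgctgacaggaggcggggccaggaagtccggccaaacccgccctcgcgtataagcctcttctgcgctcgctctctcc
Nr2c2 (chr6:92092183-92092432, plus strand): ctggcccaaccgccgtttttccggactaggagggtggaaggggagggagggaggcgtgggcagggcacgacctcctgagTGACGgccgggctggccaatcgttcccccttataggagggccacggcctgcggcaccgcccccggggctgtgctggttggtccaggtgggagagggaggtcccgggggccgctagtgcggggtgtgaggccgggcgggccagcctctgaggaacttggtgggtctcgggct
Esrrb (chr12:86360867-86361116, plus strand): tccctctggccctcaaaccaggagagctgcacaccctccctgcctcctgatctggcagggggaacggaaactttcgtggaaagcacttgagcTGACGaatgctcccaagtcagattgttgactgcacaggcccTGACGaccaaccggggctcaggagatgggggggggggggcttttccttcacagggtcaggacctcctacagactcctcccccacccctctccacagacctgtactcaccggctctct

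The labels were checked on Crtc1 itself, whose brightest probe set read 85.1 for the knockout against 631 for the wild type, although whether its probes fall within the altered segment is not stated. Median probe-set signals were 54.4 and 52.2 in knockout and wild type, and the deposited scaling was kept. Of 11 genes that mark hypothalamic nuclei during development or in the adult, 4 were measured, and Rax, Hmx2 and Hmx3 lay at the floor of both arrays. None of 9 anterior pituitary markers with a probe set was measured.

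Probe sets were called measured when their log2 signal, averaged over the pools, reached 5.71, which is a signal of 52.3 and the median of all probe sets. By this limit 22 of the 34 receptor genes with a probe set were measured (64.7%), against 62.2% of all genes, and they entered with 50 of the 92 probe sets. Each gene is described by its brightest measured probe set. Each difference is the log2 signal of the knockout pool minus that of the wild-type pool. The array error beside them is the SD of this difference between measured probe sets of one gene, over all genes. It is given by the brightness of the probe set itself, whatever the brightness of the others of its gene. It holds no spread between mice.

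The brightest receptor signals belonged to orphan receptors and to the glucocorticoid receptor. Rora read 2436 in the knockout and 2332 in the wild-type pool, Nr2c2 1445 and 1103, and Nr3c1 1020.3 and 941. These 3 genes lay above percentile 75 of the 11312 measured genes by signal. Then came Nr2f1, Nr2f2, Rxrb, Nr2f6, Pgr and Rorb, followed by Esrrg, Esrra, Nr3c2, Rxra, Rarb, Ppard and Esr1. The dimmest 6 were Nr2c1, Rarg, Rxrg, Esrrb, Nr6a1 and, last, Nr2e1 at 82.0 and 93.9. The median receptor gene stood at percentile 44.0 of all measured genes. Signals of different probe sets also depend on their probes, so this is an order of signal and not of transcript number. Of the 21 gaps between neighbours in the order, 1 exceeded 0.86 on the log2 scale, the median SD of the mean signal between probe sets of one gene. That gap separated Rora from Nr2c2. Between the pools no gene moved by more than 5 places.

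**Figure D1:**
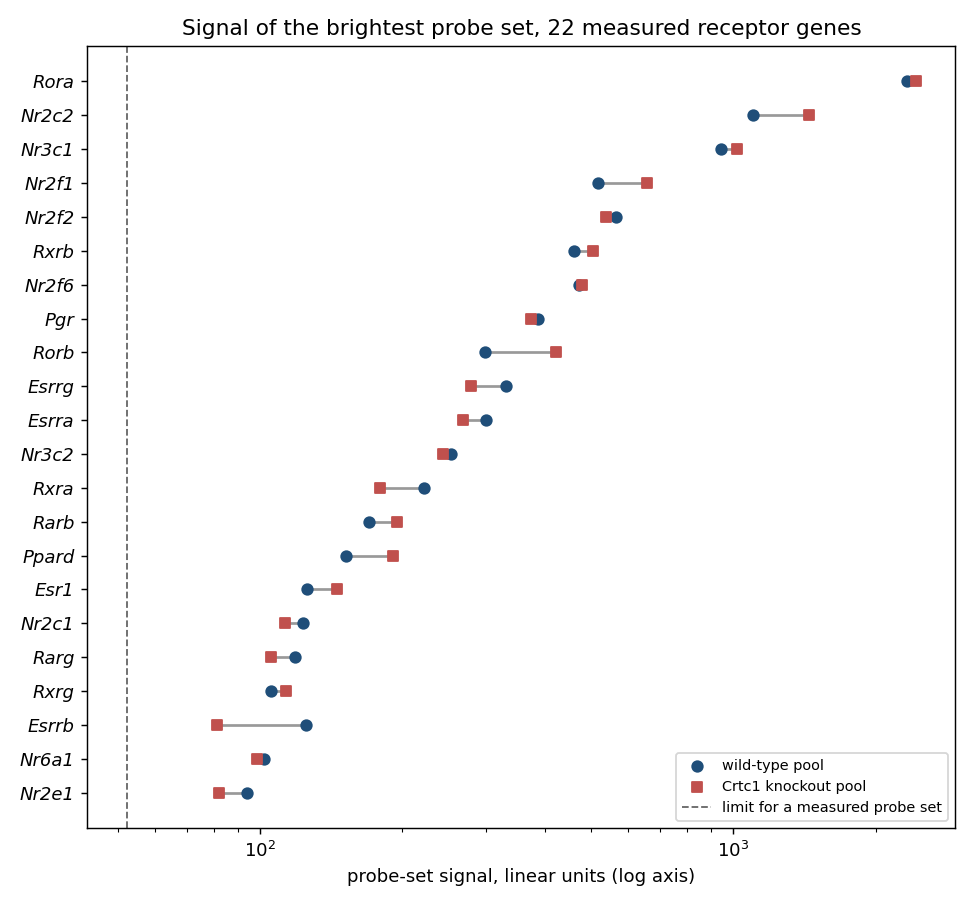
Signal of the brightest measured probe set (log axis, linear units) of each of 22 receptor genes in the Crtc1 knockout pool (squares) and the wild-type pool (circles), 1 array each; the dashed line is the limit of 52.3. The pools lie close together for most genes across a range from 81.3 (Esrrb, knockout) to 2436 (Rora, knockout), with the widest gap for Esrrb.

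Between genotypes the receptor genes divided evenly. Of the 22 measured genes, 11 were higher and 11 lower in the knockout pool, with a median of -0.01 against 0.00 over all measured genes. At least 1.2-fold apart were 6 receptor genes (27.3%), against 21.9% of all measured genes. Rorb, Nr2c2, Nr2f1 and Ppard were higher (the background for higher is 11.9%), and Esrrb and Rxra lower (9.97%). At 1.5-fold 1 gene remained, Esrrb, lower in the knockout pool, against 3.50% of all genes past this fold and 1.44% in this direction. The difference exceeded the array error in 7 of 22 (31.8%), those 6 and Esrrg, against 25.2%. These shares lie near the background. In bulk RNA, fewer cells of a type and less RNA per cell cannot be told apart.

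**Figure D2:**
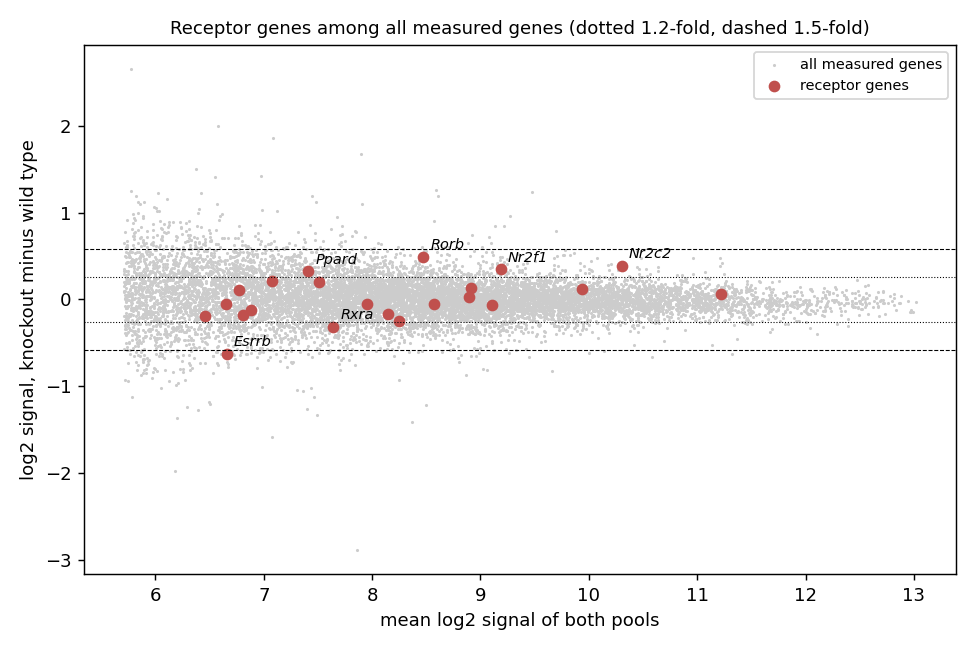
Difference between the pools (knockout minus wild type, log2) against mean log2 signal for all 11312 measured genes (grey) and the 22 receptor genes (red); dotted lines mark 1.2-fold and dashed lines 1.5-fold. The receptor genes lie within the grey cloud, and the 6 genes past 1.2-fold are named.

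The ROR receptors activate the same DNA elements that the Rev-erb repressors of the clock occupy. Rorb, known from the suprachiasmatic nucleus, retina, thalamus and sensory cortex, was the one receptor gene with several measured probe sets that were all at least 1.2-fold apart in the same direction. Its brightest probe set read 422 for the knockout against 299.6 for the wild type. The second read 93.7 and 70.8, and the third 63.0 and 51.0. The wild-type reading of the third lay under the limit of 52.3, so it counted as measured only through its knockout reading. All 3 were higher in the knockout pool, by 0.49, 0.40 and 0.30 on the log2 scale, and the brightest was 1.41-fold higher (array error 0.23). Rorb was 1 of 19 genes, out of 2099 with at least 3 measured probe sets (0.905%), in which every one had the same sign and was at least 1.2-fold apart. In every setting tried its difference lay between 0.40 and 0.49. Markers of regions that border the hypothalamus were compared beside it. Of the measured cortex and hippocampus markers 7 of 10 were higher, with a median of 0.19, and 4 were at least 1.2-fold higher and 3 at least 1.2-fold lower. The shares over all measured genes were 11.9% higher and 9.97% lower at this fold. Neurod6, of cortical excitatory neurons, read 168 in the knockout and 107 in the wild-type pool, 1.57-fold higher. The summed signals of this list, 8816 and 8745 in knockout and wild type, rest largely on Camk2a, a kinase of excitatory synapses, which read 3253 and 3958, and no gene of the list was at the floor of both arrays. Of the striatal markers 8 of 10 were higher (median 0.11), with sums of 5624 and 5333, and thalamic markers, Rora among them, in 5 of 11 (median -0.10), with sums of 10489.7 and 10979.9. The part of other regions in the Rorb signal was not tested.

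Rora, the related receptor that supports Purkinje cell development and clock gene expression, showed no common direction. Its 8 measured probe sets ran from -0.33 to 0.10, with 0.06 at the brightest and -0.06 on average. The signals of these probe sets spanned 5.15 log2 units, more than those of any other receptor gene here.

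Among the orphan receptors of the NR2 subfamily, all 6 genes were measured, 3 higher and 3 lower. Nr2f1, which encodes a COUP transcription factor that patterns the cortex and guides neuronal identity, read 658 in the knockout and 517 in the wild-type pool by its only probe set. It was 1.27-fold higher (0.35, array error 0.21), and 0.29 to 0.36 in every setting. Its paralog Nr2f2, a COUP factor of venous endothelium and interneurons, read 539 and 565.5, and its 4 measured probe sets lay between -0.07 and 0.17. The paralogs differed in direction by their brightest probe sets, while the difference of Nr2f2 was within its array error of 0.21. The dimmer measured probe sets of Nr2f2 were higher in the knockout pool, at 0.06, 0.03 and 0.17. The mean of the 4 was 0.05, the same direction as Nr2f1. Nr2f6, a further relative, read 480.3 and 473 and differed by 0.02, whereas its dimmer probe set read 111 and 84.5 and differed by 0.39. Nr2f6 lies on the chromosome of Crtc1, 37 protein-coding genes away, and Nr3c2 lies 96 genes away on the same chromosome.

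Nr2c2, an orphan receptor that binds direct repeats shared with retinoid and lipid receptors, read 1445 in the knockout and 1103 in the wild-type pool by its brightest probe set, 1.31-fold higher (0.39, array error 0.16). Its other measured probe sets disagreed with each other, at 157 against 123 (0.35) and 129.8 against 182 (-0.49). The mean of the 3 was 0.08, so the gene had no settled direction. Nr2c1, its partner in a repressor complex of globin genes, was likewise split, at -0.13 by the brightest and 0.36 and 0.47 by the dimmer probe sets. Nr2e1, the tailless homolog that maintains neural stem cells and whose promoter holds the full CREB letters, read 82.0 and 93.9, a difference of -0.20 within its array error of 0.32.

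All 3 oestrogen-related receptors, constitutively active orphans that drive mitochondrial and oxidative genes, were lower in the knockout pool by their brightest probe sets, with a median of -0.25. Esrrb read 81.3 in the knockout and 125 in the wild-type pool, 1.54-fold lower (-0.63, array error 0.32). That probe set is of a type that can match several transcripts, and the other measured probe set of Esrrb read 55.1 and 59.6, a difference of -0.11. Esrrg read 279 and 331 and was 1.19-fold lower (-0.25, array error 0.23), but its dimmer probe set read 72.1 and 62.1 and differed by 0.22. Esrra read 268 and 300.5, and both of its probe sets differed by -0.16, within their array error. Of 9 measured genes that ERR proteins are known to activate, Esrra itself included, 5 were higher and 4 lower, with a median of 0.00. Past 1.2-fold was 1 gene, against 21.9% of all measured genes. That gene was Cycs, which encodes cytochrome c, at 0.29 by its brightest probe set and 0.01 on the mean of its 4.

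**Figure D3:**
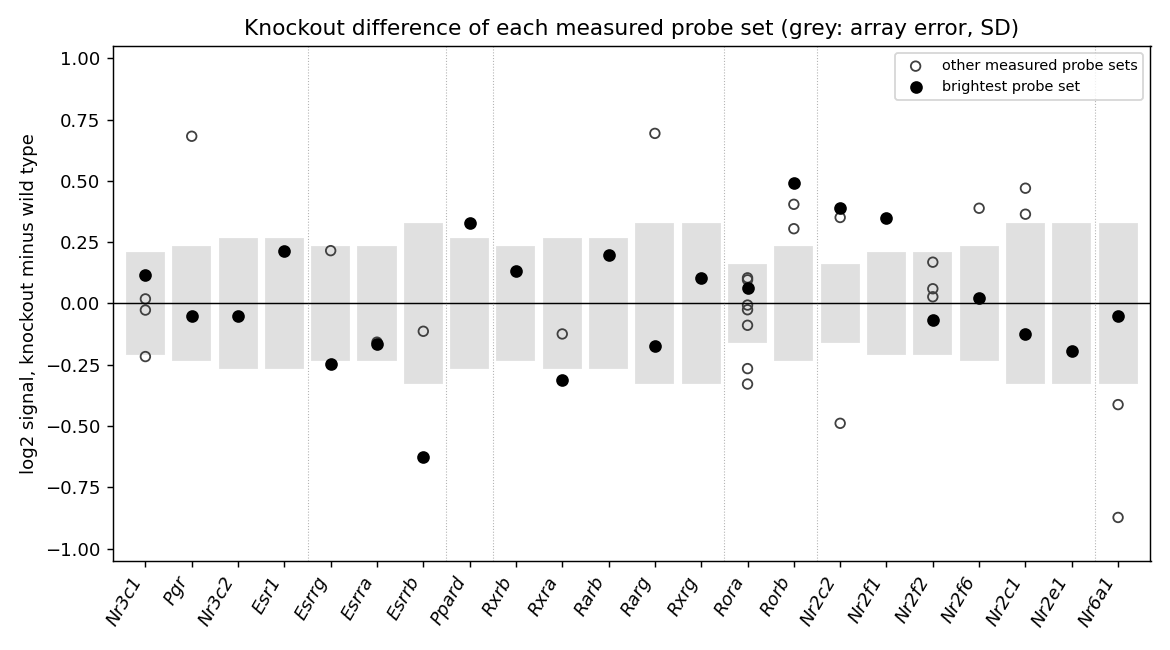
Difference between the pools (knockout minus wild type, log2) of each measured probe set of 22 receptor genes, ordered by receptor class (dotted dividers) and by signal within it; filled points are the brightest probe sets, open points the others, and grey boxes span 1 array error on either side of 0. The 3 points of Rorb lie above 0 together, while the points of Nr2c2, Pgr and Rarg lie on both sides.

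Of 5 steroid receptors 4 were measured, 2 higher and 2 lower. Nr3c1, the glucocorticoid receptor, read 1020.3 and 941 by its brightest probe set (0.12, array error 0.21), and its 4 measured probe sets ran from -0.22 to 0.12. Nr3c2, the mineralocorticoid receptor, read 244 and 253 (-0.05). Esr1, the main oestrogen receptor of the hypothalamus, read 145 and 125.5, a difference of 0.21 within its array error of 0.26. Pgr, the progesterone receptor and a classical target of oestrogen action, read 374 and 387.5 by its brightest probe set (-0.05), but 93.2 and 58.1 by a dimmer one (0.68). Esr2 read 6.7 and 9.5 and was not measured. None of the 4 was 1.2-fold apart by its brightest probe set, a count that does not stand apart from the 21.9% of all measured genes.

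Targets of these receptors were mixed. Of 8 measured genes known to respond to oestrogen, Pgr itself included, 3 were higher and 5 lower, with a median of -0.07. Irs4, an insulin receptor substrate abundant in the hypothalamus, read 236.5 in the knockout and 336 in the wild-type pool, 1.42-fold lower, and both of its probe sets were lower with a mean of -0.60. The remaining large differences were Cited1 at -1.21, Oxt at 0.48 and Tff1 at -0.30. Of 13 measured glucocorticoid-responsive genes, 6 were higher and 7 lower, with a median of -0.01. Past 1.2-fold were 3 genes, all lower, against 9.97% of all measured genes in this direction and 21.9% in either. Each had 1 measured probe set. Plin4, a lipid droplet protein gene, was 1.41-fold lower (-0.49), Per1, a clock gene, 1.25-fold lower (-0.32), and Sult1a1, a sulfotransferase gene, 1.22-fold lower (-0.29).

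Most receptors for lipids were dim. Ppard, the fatty acid sensor found in most brain cells, was the only measured gene of the fatty acid, oxysterol and bile acid sensors. Of the 7 genes in this class 6 had a probe set, Nr1h2 being the exception. Over all genes with a probe set 62.2% were measured. Ppard read 191 in the knockout and 152 in the wild-type pool, 1.26-fold higher (0.33, array error 0.26), and 0.27 to 0.33 in every setting. The other probe set of Ppard alone read 2 in both pools, at the floor of both arrays, so the difference rests on 1 probe set. Ppara read 34.1 and 32.2 by its brightest probe set, Pparg 16.7 and 4.3, Nr1h3 51.8 and 43.3, Nr1h4 18.6 and 20.6, and Hnf4a 34 and 39.4. Each of these was under the limit of 52.3 in both pools. Nr1h3, the oxysterol receptor, came closest to it, while the dimmest receptor gene above the limit was Nr2e1.

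Of 10 measured PPAR targets, 3 were higher and 7 lower, with a median of -0.05. Pdk4, a kinase that restrains pyruvate oxidation, was 2.06-fold higher from a low signal of 59.0 in the wild type, and Plin2, Ucp3 and Acot2, genes of lipid droplets, mitochondrial transport and fatty acyl cleavage, differed by -0.30, -0.28 and -0.21. Of 11 measured targets of oxysterol receptors, 7 were higher and 4 lower, with a median of 0.03. Abca1, the cholesterol exporter, read 590.1 and 520.3 (0.18), with probe sets of opposite sign, and Apoe, the main brain apolipoprotein, differed by -0.17. Past 1.5-fold were Lpl, a lipase, at 1.26 and Apoc1, an apolipoprotein gene, at -1.98, against 3.50% of all measured genes. Apoc1 had 1 measured probe set, which read 36.5 in the knockout and 143.8 in the wild-type pool. The knockout reading was under the limit of 52.3, so Apoc1 counted as measured only through the wild-type pool.

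Retinoid receptors were measured in 5 of 7 genes of their class, which also holds the vitamin D receptor. Rxra, a common partner of other receptors, read 179 in the knockout and 222 in the wild-type pool, 1.24-fold lower (-0.31, array error 0.26). Its second measured probe set read 99.0 and 108 and differed by -0.12, and with the mean of both the gene was under 1.2-fold (-0.22). Its paralogs were higher, Rxrb at 505 and 460.1 (0.13) and Rxrg at 113.5 and 105.5 (0.11), both within their array errors. Rarb, a retinoic acid receptor abundant in striatum, read 195 and 169.6, a difference of 0.20 within its array error of 0.26. Rarg had opposite signs, at 105 and 119 (-0.17) by the brighter and 69.7 and 43.1 (0.69) by the dimmer probe set. Rara read 9.7 and 44.8, and Vdr 35.3 and 22.8, both under the limit.

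Genes that make, carry and clear retinoids and steroids were higher in some cases and lower in others. Of 15 measured enzyme genes 8 were higher and 7 lower, and 5 were past 1.2-fold, 2 higher and 3 lower, against 21.9% of all measured genes in either direction. Hsd17b12, an enzyme of fatty acid elongation and steroid reduction, read 1035 and 1284 and was 1.24-fold lower (-0.31, array error 0.16), with both probe sets lower. Hsd17b4, of peroxisomal oxidation, differed by -0.33, with probe sets of opposite sign. Aldh1a2, which makes retinoic acid, differed by -0.31, and Cyp11a1, which starts steroid synthesis, by 0.31, both within their array errors of 0.32. Among 5 measured carriers, Rbp4, the retinol carrier of plasma, differed by -0.36 and Rlbp1, a cellular retinal carrier, by 0.37, while Fabp7, of radial glia and astrocytes, differed by -0.26 and Fabp5 by 0.16. Choroid plexus, which makes carriers of this kind, had lower marker signals in the knockout pool in 9 of 10 measured genes. Of all 11312 measured genes 5545 were lower. The marker sums were 9513 and 10710.3 over 11 genes, 1 of which lay at the floor of both arrays. These sums rest largely on Ttr, which read 7745 in the knockout and 8570.7 in the wild-type pool (-0.15, array error 0.16). The part of choroid plexus in the Rbp4 signal was not tested. Of 5 measured retinoic acid targets, Rarb itself included, 2 were higher and 3 lower, and none was past 1.2-fold.

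Of the receptors of the NR5, NR6 and NR0 subfamilies, Nr6a1 alone was measured. Nr6a1 encodes the germ cell nuclear factor, a repressor of pluripotency genes. It read 98.5 in the knockout and 102 in the wild-type pool by its brightest probe set (-0.05), 64.4 and 85.7 by the second (-0.41) and 40.7 and 74.5 by the third (-0.87). All 3 were lower, but by sizes that grew with dimness, and their mean was -0.45. The third was under the limit of 52.3 in the knockout pool and counted as measured only through its wild-type reading. Nr5a1 lies next to Nr6a1 on the chromosome and encodes steroidogenic factor, which defines the ventromedial nucleus of the hypothalamus. It read 8.8 in the knockout and 51.5 in the wild-type pool by the brighter of its probe sets and 13.4 and 17.9 by the other, all below the limit, so no difference is drawn for it. Other ventromedial markers, of which 6 were measured, were higher in 3 and lower in 3, with a median of 0.07. Nr5a2, and the NR0 receptors Nr0b1 and Nr0b2, which lack a DNA-binding domain and repress other receptors, read no higher than 31.2 in either pool.

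Coactivators, which carry the activating signal of a bound receptor to chromatin, differed little by their brightest probe sets. All 18 coactivator genes were measured, 12 higher and 6 lower, and none was 1.2-fold apart by its brightest probe set, against 21.9% of all measured genes and 14.4% of genes measured with the filter at the 70th percentile of signal. The largest differences were those of Ncoa3, Ncoa2 and Ncoa1, the p160 coactivators of steroid receptors, at 0.18, 0.15 and 0.14, and of Ddx5, an RNA helicase, at 0.11. The probe sets of Ncoa1 and Ncoa2 had opposite signs. On the mean of probe sets some differed more. Crebbp, with 3 probe sets all higher, moved from 0.09 by its brightest to 0.26, and Kat2b from 0.06 to 0.18. Med1 moved from 0.08 to -0.13. Of 10 measured corepressor genes 3 were past 1.2-fold, all lower, against 9.97% of all measured genes in this direction and 21.9% in either. Lcor, a ligand-dependent corepressor, read 118.0 in the knockout and 165.0 in the wild-type pool, 1.40-fold lower (-0.48, array error 0.26), and its 4 measured probe sets were all lower, with a mean of -0.29. Rcor1, which joins histone demethylase and deacetylase to repressors, read 163 and 226 and was 1.39-fold lower (-0.47), and its 3 probe sets were all lower, with a mean of -0.39. Atn1, the atrophin corepressor, read 339 and 423 and was 1.25-fold lower (-0.32). Other corepressors were higher on the mean of their probe sets, among them Rere at 0.34 (0.08 by its brightest) and Tbl1xr1 at 0.26 (0.01 by its brightest). Of 8 measured chaperones of steroid receptors 2 were higher and 6 lower, none past 1.2-fold, and Fkbp4 and Fkbp5, immunophilins of the receptor complex, differed by -0.26 and -0.17.

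**Figure D4:**
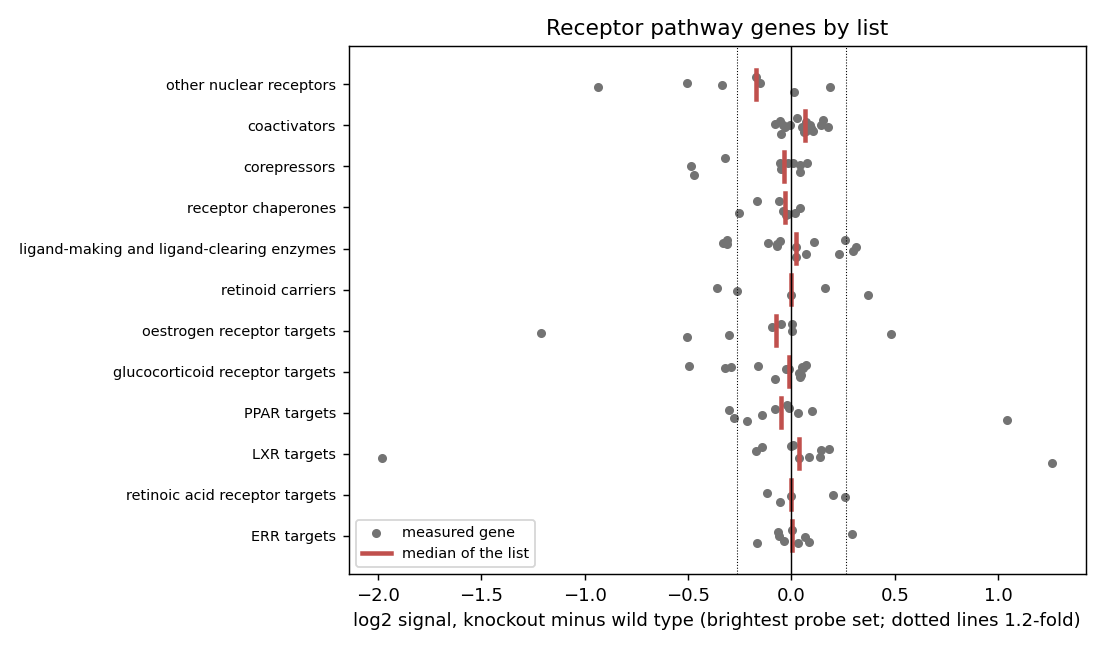
Difference between the pools (knockout minus wild type, log2) of measured genes on 12 lists of the receptor pathway (grey points, brightest probe set) with the median of each list (red bars); dotted lines mark 1.2-fold. The coactivator points cluster near 0 and 3 corepressor points lie to the left of the dotted line.

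Of 13 receptors of the same superfamily outside the 35 genes, 10 had a probe set and 7 were measured, 2 higher and 5 lower. Nr1d1, the Rev-erb repressor that competes with ROR receptors, read 220.4 in the knockout and 421 in the wild-type pool, 1.91-fold lower. Nr4a3 and Nr4a1, which respond early when neurons fire, read 1.42-fold and 1.26-fold lower, and Nr1d2 differed by 0.19 with probe sets of opposite sign. Over all 112 measured pathway genes outside the 35, 53 were higher and 59 lower, with a median of -0.01, and 23.2% were past 1.2-fold against 21.9% of all genes.

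Repeat readings of the same pools by several probe sets agreed in sign for a minority of receptor genes. Of 14 receptor genes with at least 2 measured probe sets, 6 had a single sign (42.9%), against 42.5% of all such genes. These were Nr2f6, Rorb, Esrra, Rxra, Esrrb and Nr6a1. In 8 the probe sets differed in sign, among them Nr2c2, Pgr, Rarg and Esrrg.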

How the data were processed

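RNA pooled from 3 mice per genotype was measured on 2 Affymetrix arrays. The deposited values are linear probe-set intensity values, 1 per probe set and array, made by a summary method that no source used here names. A mean of the deposited intensity values that left out 2% at each end came to 200.0 on either array, so the authors had scaled each array by 1 factor. Symbols came from GEO's platform annotation, updated through RefSeq (GRCm38.p6) by Entrez ID. The 64 control probe sets of 45101 were left out. Array medians lay 0.06 log2 units apart, and centring was set to begin at 0.1. Signals under the 30th percentile of an array (20.5 in knockout, 20.2 in wild type) were raised to it before taking log2, and values at the floor have no order. The array error fell with brightness, from 0.32 for probe sets whose mean log2 signal was under 7 to 0.16 for those over 10. Transcripts of a gene that truly differ would add to it. Precision is limited by the number of arrays.

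The receptor genes and lists were chosen with earlier results of these data known. All 35 genes were to be accounted for, with up to 4 measured genes of largest difference from each pathway list, and Crtc1 as the check of the labels. Marker genes named beside a result were chosen after their values were seen. Alternatives were 3 scalings, other floors, a pseudocount of 16, other filters on dim probe sets, the mean of a gene's probe sets and leaving out _s_at and _x_at probe sets. The steps were tested on simulated data. Python 3.11.15, pandas 2.3.3 and statsmodels 0.14.6 were used.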

Additional observations from a re-analysis of the deposited data

How the results depend on the processing

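Of the 22 measured receptor genes, 15 kept the direction of their difference under the alternatives that measured them, which were all 10 except that the filter at the 70th percentile left out Esr1, Rxrg, Esrrb, Nr6a1 and Nr2e1 among them. Rorb, Nr2f1 and Ppard stayed at least 1.2-fold higher in all 10. Nr2f1 and Ppard each had 1 measured probe set, well above the floors. Their values therefore could not change with the floor, the filter, the mean of probe sets or the left-out probe sets, and only the scalings and the pseudocount tried them. The 7 that changed sign in at least 1 setting were Rora, Nr3c1, Nr2f2, Nr2f6, Pgr, Nr2c1 and Rarg, none of them 1.2-fold apart as reported. With no filter on dim probe sets 34 receptor genes counted as measured, 10 of them at least 1.2-fold and 4 at least 1.5-fold apart, while the shares over all genes rose too, to 25.6% and 7.15%. The count past 1.5-fold, 1 as reported, was 0 with the pseudocount, with the filter at the 70th percentile, with the mean of probe sets and without _s_at and _x_at probe sets. The last of these left Esrrb at -0.11. Taking the mean of probe sets moved Esrrg to -0.01, Nr2c1 to 0.24, Nr2c2 to 0.08, Nr6a1 to -0.45, Pgr to 0.32 and Rarg to 0.26, since their probe sets differ. Of 213 recomputed differences the other 206 moved by less than the array error. Many of these could not move, since the other floors and filters left the value of every measured receptor gene unchanged. The mean of probe sets also could not move genes with 1 measured probe set. The median over receptor genes lay between -0.07 and 0.09 and had no settled sign. No paired analysis was possible because each genotype had 1 pooled array. The 12 receptor genes under the signal limit cannot be compared at this brightness.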

Other observations

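Of the 42 receptor probe sets under the limit, 21 were at the floor of both arrays. The dimmer probe sets of Esr1 gave 22 in the knockout and 46.9 in the wild-type pool by one, and 24.0 and 22.9 by the other, and neither reached the limit. The probe sets of Hnf4a, which encodes a liver and gut receptor, ran from 0.7 to 39.8. A probe set that the annotation pairs with Ppard and a clone-named transcript together read 55.6 in the knockout and 32.7 in the wild-type pool. This is the same direction as the measured probe set of Ppard alone, but below the limit on average, and it entered no gene value.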
